A study of Homo sapiens with 14 samples.

Results

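KMT2D binding around 6 genes of glucose metabolism was described from chromatin immunoprecipitation sequencing (ChIP-seq) of glucose-deprived head and neck squamous cell carcinoma (HNSCC) cells. The genes were SLC2A1, HK2, PFKFB3, LDHA, TXNIP and DDIT4. A peak belonged to a gene's window when its summit lay inside the gene or within 50 kb of either end, with gene positions in build hg19 (GRCh37) rounded to 1 kb. This rule uses position alone and no measured value. It took in 29 of the 13808 peaks in the list, and 9 of them lay around DDIT4.

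The peaks came from 1 library, an immunoprecipitation with an antibody to KMT2D in KMT2D-WT SCC23 cells deprived of glucose for 6 hours. SCC23 is an established human HNSCC line, and the labels call the condition low glucose. The labels give KMT2D-KO cells as made by transfecting a Cas9 plasmid with a guide to KMT2D, beside a guide to LacZ. Whether the KMT2D-WT library came from cells given the LacZ guide is not given in the sources used here. The other 13 samples of the series (an input, and histone marks and H3 in both genotypes) were not analysed here. No library from cells with glucose and no replicate was at hand, so no comparison of conditions was made, and intervals below cover counting error only. The series holds no library with the KMT2D antibody from KMT2D-KO cells, so the specificity of the antibody at these peaks was not checked. The squamous identity of the cells was not checked against marker genes, since a peak list holds no expression values.

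KMT2D, also called MLL4, is a large histone methyltransferase that places methyl groups on lysine 4 of histone H3, mainly at enhancers, and works beside the acetyltransferases CBP and p300. Tumour cells with aerobic glycolysis take up glucose through the transporter GLUT1, the product of SLC2A1, and trap it by phosphorylation with hexokinase, of which HK2 is the form raised in many cancers. PFKFB3 makes the sugar bisphosphate that activates phosphofructokinase, and LDHA turns pyruvate into lactate. TXNIP and DDIT4 act as brakes. TXNIP is an arrestin-like protein that lowers glucose uptake and is transcribed when sugar phosphates activate the factor MondoA with its partner MLX. DDIT4 (REDD1) restrains mTORC1 signaling under energy stress and hypoxia.

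KMT2D peaks lay around every one of the 6 genes, and they were most numerous around DDIT4. At a q-value of at most 0.01, the LDHA window held 0 peaks. There were 9 peaks in the DDIT4 window, 6 around HK2, 4 each around SLC2A1, PFKFB3 and TXNIP, and 2 around LDHA. The 29 peaks gave 36.0 per Mb of window (95% Poisson interval 24.1 to 51.7), against 4.49 per Mb over chromosomes 1 to 22 and X (4.41 to 4.57). The windows are centred on genes, and the genome-wide figure includes gene-poor sequence, so nothing particular to these genes can be read from the difference. When chromosomes 1 to 22 and X were cut into stretches as long as each window, at least 1 peak was held by 20.9% of stretches of 102 kb (DDIT4), 21.1% of 105 kb (TXNIP) and 22.3% of 114 kb (LDHA). The share was 24.8% at 134 kb (SLC2A1), 27.5% at 160 kb (HK2) and 30.5% at 191 kb (PFKFB3). Per Mb, the DDIT4 window held 88.2 peaks (40.3 to 167.5) and the LDHA window 17.5 (2.12 to 63.4), and these intervals overlap.

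Peaks near the 5′ ends of HK2, LDHA and TXNIP were weak, each with a q-value of 0.217, and the peak of highest fold enrichment in each window lay elsewhere. Near means here that the peak reached within 2 kb of the 5′ end. A single 5′ end per gene was used, namely the end of its stated span where transcription starts. Distances from other listed start sites were not measured. The HK2 peak no longer counted as near within 1 kb or by its summit, which lay 2.71 kb inside the gene, and the TXNIP peak no longer counted with the 5′ end at the higher coordinate. The highest peak was picked by its fold enrichment from all peaks of its window. That choice favours a gap from any other peak, so the intervals that follow are a description and no test. In the HK2 and TXNIP windows, the 95% Poisson interval of the fragments under the highest peak did not overlap that of the peak near the 5′ end, although for TXNIP the intervals nearly met. In the LDHA window they overlapped. At DDIT4 the interval of the highest peak (41.4 to 71.6 fragments) overlapped that of the strongest of the 3 peaks near the 5′ end (25.2 to 49.8). The edge of that peak lay 1058 bp from the 5′ end. The peaks closer to this end had intervals of 10.7 to 28.4 and 9.15 to 26.0, which did not overlap that of the highest peak.

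**Figure D1:**
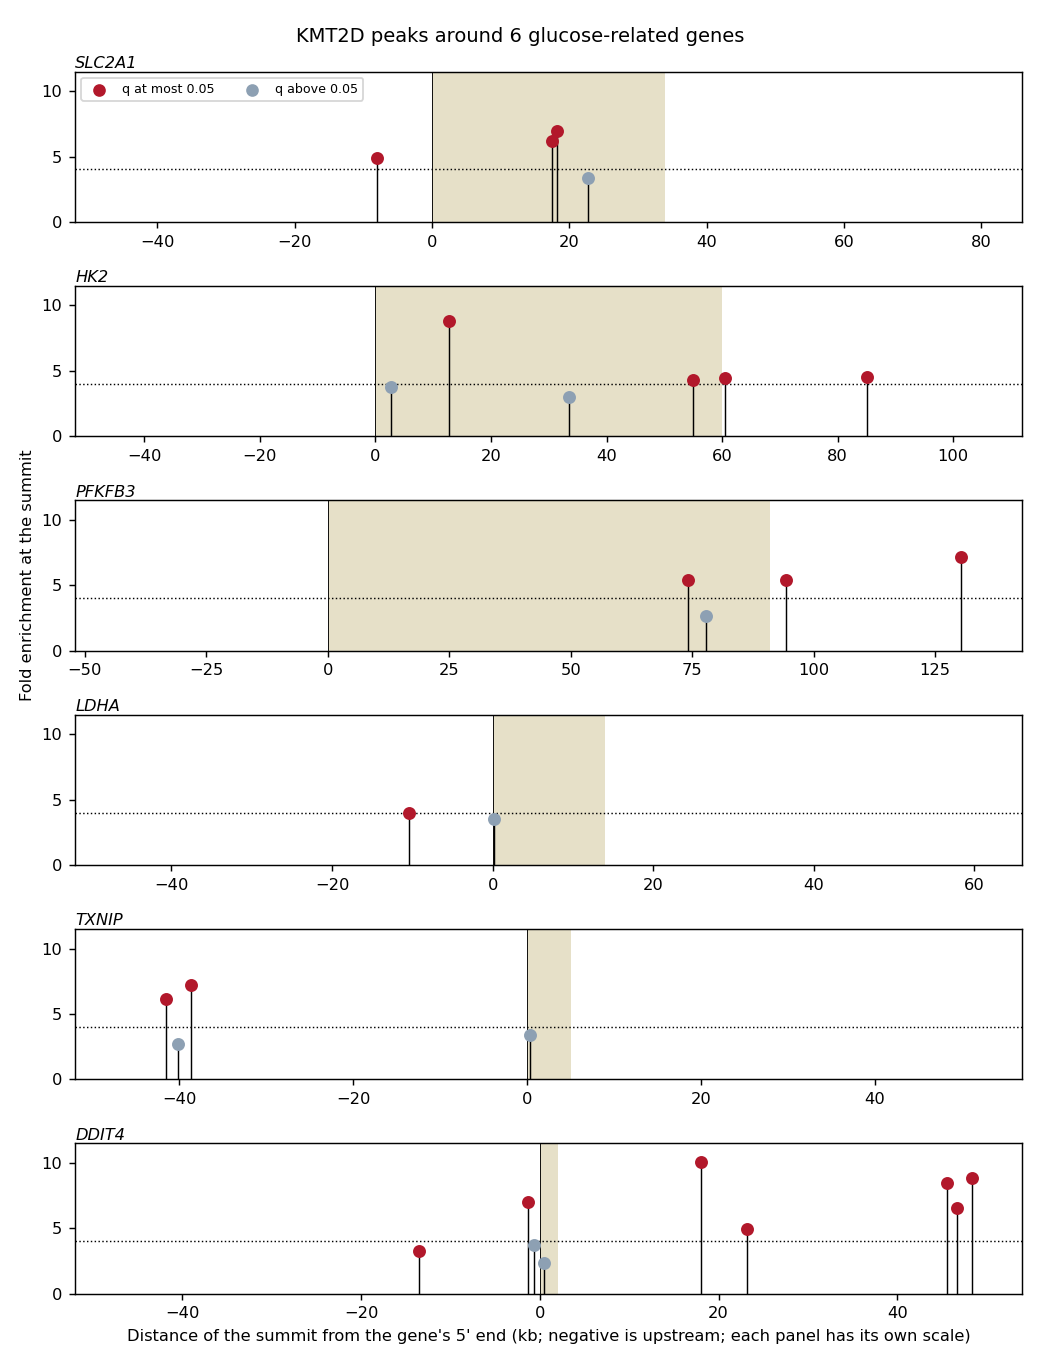
Each panel is a gene window, with the distance of each KMT2D summit from the gene's 5′ end in kb on the x axis and its fold enrichment on the y axis. The shaded band is the gene, the dotted line is the median fold enrichment of 4.01 on chromosomes 1 to 22 and X, red points have a q-value of at most 0.05 and grey points a higher one. The tallest points lie away from the 5′ end, as at 18.1 kb for DDIT4 (10.1) and 12.7 kb for HK2 (8.83). The TXNIP panel assumes that the gene starts at its lower coordinate.

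The depth behind these peaks was modest. Fold enrichment is the authors' ratio of ChIP pileup, scaled to the control, over local background at the summit, each with a pseudocount of 1. From that ratio and the p-value, the fragments under each summit were rebuilt. Their number ran from 12 to 67 over the 29 peaks, with a median of 31, against 25 in the whole list. The q-value was at most 0.05 at 20 of the 29 peaks (69.0%, 95% Wilson interval 50.8 to 82.7%), and at 58.5% of the whole list, which lies inside the interval. At a q-value of at most 0.01 the members were 18 of 29, beside 47.7%. A q-value of 1 belonged to 3 of the 29, and to 14.2% of all peaks.

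Median fold enrichment was 4.90 around the 6 genes (range 2.36 to 10.1) and 4.01 on chromosomes 1 to 22 and X. Leaving out the DDIT4 window, a choice made once the values were known, gave a median of 4.47. A fold enrichment of at least 5.55, the 75th percentile on these chromosomes, was found at 11 of the 29 peaks (37.9%, 22.7 to 56.0%), beside 25.1% of all peaks there. The local background has the genome-wide level as its floor. It was at least 2 times that level at 2 of the 29 peaks (6.90%, 1.91 to 21.97%) and at 15.2% of peaks on chromosomes 1 to 22 and X. It reached 2.74 times at most around the 6 genes.

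**Figure D2:**
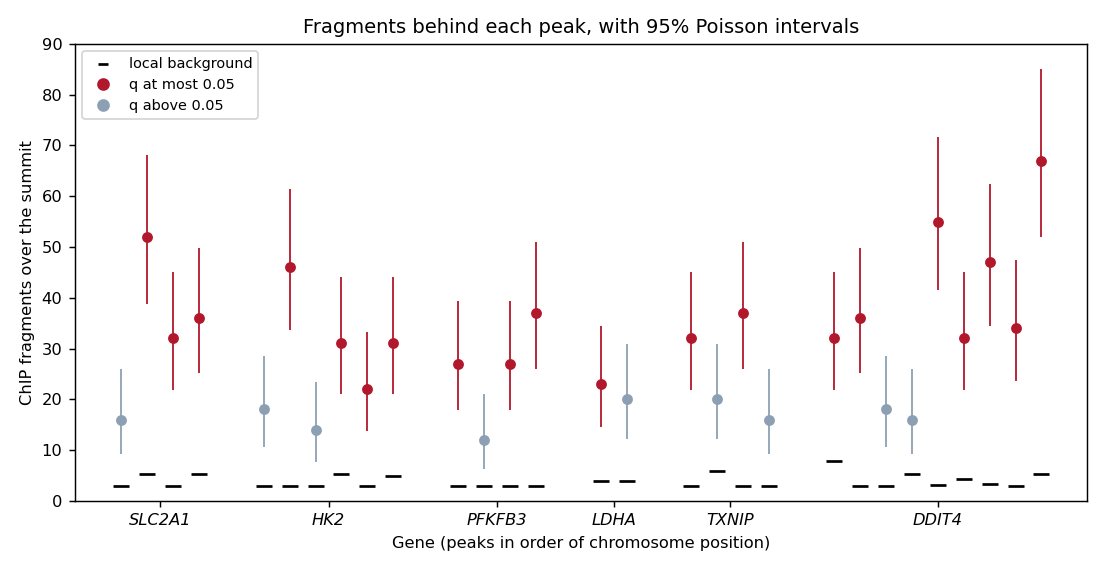
ChIP fragments over the summit (y axis) are shown for each of the 29 peaks, grouped by gene along the x axis, with bars for the 95% Poisson interval and short black lines for the fragments that the local background gives. Red peaks have a q-value of at most 0.05 and grey ones above it. The highest point is the DDIT4 peak with 67 fragments, and the lowest is the PFKFB3 peak with 12.

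The sequences just before the start sites are shown for TXNIP, LDHA and DDIT4, the 3 genes with a peak reaching within 1 kb of the 5′ end. They are the 250 bases before the first listed RefSeq start site, from build GRCh38.p14. Their coordinates cannot be set beside the hg19 positions of the peaks. All 6 genes matched the promoter table, with 10 start sites in all. Capitals mark ACGTG on either strand, the core of sites for hypoxia-inducible factors and of the E-box CACGTG bound by MYC, USF and related factors. In TXNIP they mark a pair of E-box-like repeats, CACGNG followed by the same letters after a spacer of 5 bases, which is the layout of the carbohydrate response element that MondoA and ChREBP bind with MLX. The stretches lie at chr1:145996580-145996829 (minus strand) for TXNIP, chr11:18394313-18394562 (plus strand) for LDHA and chr10:72273674-72273923 (plus strand) for DDIT4.
TXNIP: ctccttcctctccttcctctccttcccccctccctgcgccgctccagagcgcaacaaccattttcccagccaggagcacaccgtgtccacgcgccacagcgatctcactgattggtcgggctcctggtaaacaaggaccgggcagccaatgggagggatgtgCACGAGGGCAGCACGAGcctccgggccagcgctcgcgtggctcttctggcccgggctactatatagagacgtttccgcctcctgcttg
LDHA: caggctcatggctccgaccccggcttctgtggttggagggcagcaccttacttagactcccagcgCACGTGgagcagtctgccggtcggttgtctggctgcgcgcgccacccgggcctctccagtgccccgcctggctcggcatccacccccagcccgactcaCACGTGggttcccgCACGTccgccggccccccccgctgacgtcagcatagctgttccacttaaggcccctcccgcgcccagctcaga
DDIT4: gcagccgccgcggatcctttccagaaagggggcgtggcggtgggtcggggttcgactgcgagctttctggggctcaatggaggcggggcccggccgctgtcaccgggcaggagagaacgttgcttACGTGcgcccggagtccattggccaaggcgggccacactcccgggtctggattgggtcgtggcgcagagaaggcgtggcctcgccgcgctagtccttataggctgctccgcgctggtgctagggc

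The carbohydrate response element layout began 88 bases before the first listed TXNIP start. It had a match in 16 of 35116 promoter stretches of the same length (0.0456%). It also fixes more letters than the other motifs searched, so its matches are rarer by design. LDHA held CACGTG beginning 185 and 87 bases before its start, and a match to TGACGTCA, the cyclic AMP response element, 51 bases before it. CACGTG was found in 6.34% of all stretches and TGACGTCA in 1.65%. DDIT4 held a single ACGTG, 125 bases before its start, and this shorter motif was found in 18.5% of stretches. The E-box also occurred before the second listed start sites of HK2 and PFKFB3. Before the second listed start site of LDHA no motif matched, and before that of TXNIP only an ACGTG did, 162 bases away. ACGTG overlaps CACGTG by construction. The AP-1 motif TGANTCA was in 6.57% of stretches and in none of those listed for the 6 genes. The motifs were chosen after the sequences were seen, and a match describes letters, not binding.

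The SLC2A1 window, on chromosome 1 around 43391 to 43425 kb, held a tight group of peaks inside the gene. They lay 17.4, 18.1 and 22.7 kb from the 5′ end. This gene runs towards lower coordinates, so its 5′ end is the higher one. The strongest peak, at chromosome 1 positions 43406687 to 43407096, had 52 fragments over its summit (95% Poisson interval 38.8 to 68.2), a fold enrichment of 6.93 and a q-value of 7.5e-10. Its neighbour at positions 43407373 to 43407702, a gap of 0.276 kb away, was 6.22-fold enriched with 32 fragments. The third, at positions 43402230 to 43402485, had 16 fragments, a fold enrichment of 3.38 and a q-value of 0.217.

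Together these 3 peaks formed a cluster of 5.47 kb, where a cluster means at least 3 peaks with gaps of up to 12500 bp. No peak lay within 2 kb of the SLC2A1 5′ end. The nearest was 7.85 kb upstream, at positions 43432846 to 43433285, with 36 fragments, a fold enrichment of 4.90 and a q-value of 1.1e-04. The local background was 1.83 times the genome-wide level at this peak and at the strongest one, and between 1.00 and 1.02 times at the others. Next outside the limit, 62.5 kb upstream, was a peak with 27 fragments, a fold enrichment of 3.76 and a q-value of 0.018.

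HK2, at 75060 to 75120 kb of chromosome 2, carried 6 peaks spread along the gene and beyond its 3′ end. The strongest, at positions 75072537 to 75072973, lay inside the gene 12.7 kb from the 5′ end. It had 46 fragments (33.7 to 61.4), a fold enrichment of 8.83 and a q-value of 4.8e-12. Its fold enrichment exceeded that of 92.9% of the peaks on chromosomes 1 to 22 and X.

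The HK2 peak nearest the 5′ end was much weaker. It spanned 801 bp at positions 75061940 to 75062740, had 18 fragments (10.7 to 28.4) and a fold enrichment of 3.75, and missed the threshold with a q-value of 0.217. Its edge was 1.94 kb from the rounded 5′ end, just inside the 2 kb used here to call a peak near it. A further weak peak, 33.4 kb into the gene, had 14 fragments and a q-value of 0.994.

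Towards and past the 3′ end of HK2, 3 peaks reached the threshold. They had 31, 22 and 31 fragments and fold enrichments of 4.27, 4.42 and 4.52. Their summits were 55.0, 60.5 and 85.1 kb from the 5′ end, so that the middle one lay 0.549 kb past the gene. None of the 6 HK2 peaks belonged to a cluster, the smallest gap between neighbours being 5.08 kb. Next outside the limit on the downstream side, 66.0 kb from the gene, was a weak peak with 13 fragments, a fold enrichment of 2.84 and a q-value of 1. Upstream the next was 85.1 kb away, with 12 fragments, a fold enrichment of 2.66 and a q-value of 1, and it formed a cluster with peaks at 86.2 and 91.9 kb, whose fold enrichments were 8.47 and 7.56.

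PFKFB3 had no peak in its first 73.97 kb and none upstream, counted from the 5′ end of its stated span. In GRCh38 a further start site is listed downstream of the first, and distances from it were not measured. The gene spans 6187 to 6278 kb of chromosome 10, and all 4 peaks lay in its last part or past its 3′ end. The strongest was the farthest, 39.4 kb beyond the gene at positions 6317162 to 6317581, with 37 fragments (26.1 to 51.0), a fold enrichment of 7.20 and a q-value of 1.0e-08.

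The other PFKFB3 peaks stood closer to the gene. A peak inside it, 74.2 kb from the 5′ end, and a peak 3.42 kb past the 3′ end had the same values, 27 fragments and a fold enrichment of 5.38, and both reached the threshold. A peak 77.8 kb into the gene was the weakest of the 29 by fragments, with 12 (6.20 to 20.96) and a q-value of 1. The local background was at the genome-wide level at all 4. Next outside the limit, 63.4 kb from the gene, was a peak with 26 fragments and a fold enrichment of 5.20.

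The window of LDHA, at 18416 to 18430 kb of chromosome 11, showed the least KMT2D signal. A peak at positions 18416068 to 18416319 began 67 bp inside the rounded 5′ end. It had 20 fragments (12.2 to 30.9) and a fold enrichment of 3.49, and with a q-value of 0.217 it did not reach the threshold. The other peak, with its summit 10.4 kb upstream at positions 18405284 to 18405667, had 23 fragments (14.6 to 34.5), a fold enrichment of 3.95 and a q-value of 0.041. The fragment intervals overlapped, so the 2 peaks could not be told apart in strength. Both fold enrichments were below the median of 4.01. Next outside the limit, 81.2 kb upstream, was a peak with 21 fragments, a fold enrichment of 4.14 and a q-value of 0.054. In GRCh38 the windows of this gene also take in GTF2H1, LDHC and LDHAL6A, and peaks were not assigned to one of them.

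TXNIP, at 145438 to 145443 kb of chromosome 1, carried a weak peak at one end and a separate group about 40 kb to its side. The weak peak was narrow, 196 bp at positions 145438261 to 145438456, and had 16 fragments (9.15 to 26.0), a fold enrichment of 3.38 and a q-value of 0.217. It lay 0.26 kb from the rounded lower end of the gene, taken here as the 5′ end. The GRCh38 annotation puts TXNIP on the opposite strand, and the lower end was used because this stretch of 1q21 is known to be turned round between the builds, which could not be checked here. With the 5′ end at the higher coordinate, the peak would lie 4544 bp from it, at the other end of the gene.

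The group beside TXNIP held 3 peaks over 4.11 kb, a cluster of its own. Its strongest member by fold enrichment, at positions 145398960 to 145399574, had 37 fragments (26.05 to 51.0), a fold enrichment of 7.20 and a q-value of 1.0e-08. The widest of all 29 peaks was here too, with 1593 bp at positions 145395468 to 145397060, 32 fragments and a fold enrichment of 6.17. Between them lay a peak with 20 fragments, a fold enrichment of 2.69 and a q-value of 1, over a local background of 2.01 times the genome-wide level. All of them lay 38.7 to 41.5 kb from the gene. Next outside the limit, 99.8 kb from the gene on the other side, was a peak with 16 fragments, a fold enrichment of 2.36 and a q-value of 1. In GRCh38 HJV, POLR3GL, ANKRD34A and LIX1L lie within 50 kb of TXNIP, and the peaks were not assigned to any of these genes.

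The window of DDIT4, a short gene at 74034 to 74036 kb of chromosome 10, had the most extensive KMT2D binding of the set. Its 9 peaks covered 6627 bp, against 636 bp around LDHA and between 1372 and 2660 bp around the other 4 genes. They fell into a group at the gene, a pair past its 3′ end and a distal group.

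At the gene, 3 peaks followed each other with gaps of 0.376 kb. The farthest upstream, at positions 74032413 to 74032942, was the only one near a 5′ end in any window to reach the threshold, with 36 fragments (25.2 to 49.8), a fold enrichment of 7.0 and a q-value of 1.1e-07. The next, at positions 74033319 to 74033971, ended 29 bp before the rounded 5′ end and had 18 fragments (10.7 to 28.4), a fold enrichment of 3.74 and a q-value of 0.217. The third lay inside the gene with 16 fragments, a fold enrichment of 2.36 and a q-value of 1. With a peak 13.6 kb upstream (32 fragments, fold enrichment 3.29, local background 2.74 times the genome-wide level), they formed a cluster of 14.4 kb.

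Past the 3′ end of DDIT4 the signal was higher. The peak with the highest fold enrichment of the 29 lay 16.1 kb beyond the gene, at positions 74051817 to 74052471, with 55 fragments (41.4 to 71.6), a fold enrichment of 10.1 and a q-value of 4.9e-15. Its fold enrichment exceeded that of 95.7% of peaks on chromosomes 1 to 22 and X. A peak of 1065 bp 4.55 kb further on was 4.97-fold enriched with 32 fragments.

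The distal DDIT4 group held 3 peaks 43.6 to 46.4 kb beyond the gene, with 47, 34 and 67 fragments. Their fold enrichments were 8.47, 6.58 and 8.83. The last, 1275 bp wide at positions 74081704 to 74082978, had the most fragments and the lowest q-value of the 29 (7.6e-16), over a local background of 1.83 times the genome-wide level. A further peak with a fold enrichment of 4.70 stood just outside the limit, 55.8 kb from the gene, and joined the group into a cluster of 4 peaks over 13.1 kb. ANAPC16 and DNAJB12 are the coding neighbours of DDIT4 in GRCh38, so these distal peaks cannot be assigned to DDIT4 by position alone.

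Peaks near a 5′ end were set beside the others. Of the 6 peaks within 2 kb of a 5′ end, 1 reached a q-value of at most 0.05, as did 19 of the other 23 and 58.5% of all peaks. The 95% Wilson interval near the 5′ ends was 3.01 to 56.4%, with its upper end just under the share in the whole list. Their median was 18 fragments (range 16 to 36) and a fold enrichment of 3.61, beside 32 fragments and 5.38 at the other peaks. Without the upstream DDIT4 peak, none of them had more than 20 fragments. The q-value of 0.217 was shared by 4 of them although their p-values were not all equal, running from 1.45e-04 at HK2 and TXNIP through 1.46e-04 at LDHA to 1.49e-04 at DDIT4. Since 3 of the 6 lie at DDIT4, these peaks are not independent, and the difference was not tested.

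By position, all 9 peaks past a 3′ end reached the threshold, as did 6 of 8 upstream and 5 of 12 inside a gene, where 58.5% of all peaks did. That share lay inside the 95% Wilson intervals for upstream peaks (40.9 to 92.9%) and peaks inside a gene (19.3 to 68.0%). It lay below the interval for downstream peaks (70.1 to 100%). Peaks of the same window are not independent, and the difference was not tested. Gene ends were rounded to 1 kb, so the class of a summit closer than that to an end is uncertain. Such summits were 0.204 kb from an end at LDHA, 0.302 kb at TXNIP, 0.458 and 0.609 kb at DDIT4 and 0.549 kb at HK2. Of these peaks only the HK2 one reached the threshold. The downstream peaks came from 3 genes, 5 of them from DDIT4 and 2 each from HK2 and PFKFB3. Their median was 34 fragments and a fold enrichment of 6.58, beside 19 fragments and 3.62 inside the genes. With TXNIP turned round, its 3 distal peaks would count as downstream, with 1 of them at a q-value of 1.

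**Figure D3:**
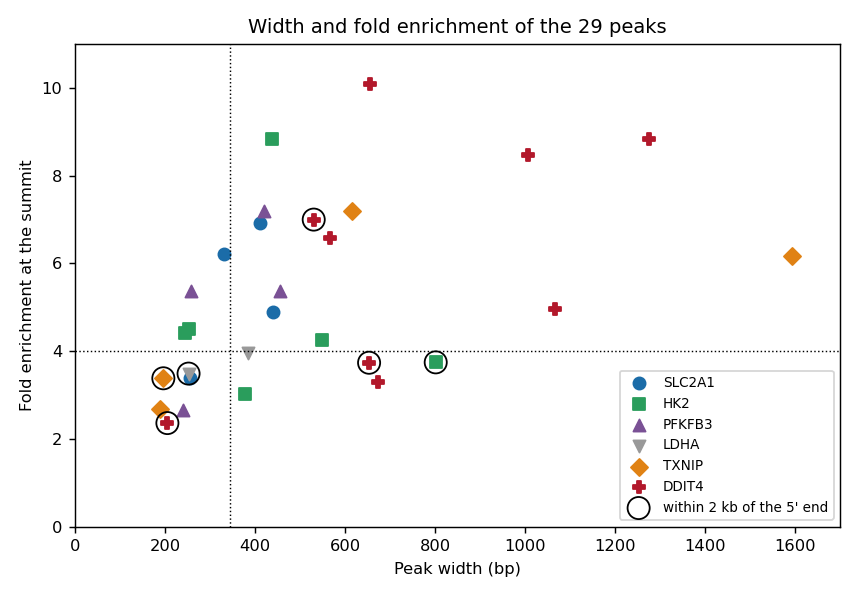
Peak width in bp (x axis) and fold enrichment at the summit (y axis) are plotted for the 29 peaks, with a symbol for each gene and a ring around the 6 peaks within 2 kb of a 5′ end. Dotted lines are the medians on chromosomes 1 to 22 and X, 344 bp and 4.01. Of the ringed peaks only the upstream DDIT4 peak lies above the horizontal line, and the 4 peaks wider than 1000 bp belong to DDIT4 and TXNIP.

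Wide peaks were found around DDIT4 and TXNIP, and clusters around these genes and SLC2A1. Of the 29 peaks, 4 were wider than 1000 bp (13.8%, 95% Wilson interval 5.50 to 30.6%), where 5.48% of all peaks are. They were 3 DDIT4 peaks and 1 TXNIP peak, while the widest peak around SLC2A1, HK2, PFKFB3 or LDHA was the HK2 peak of 801 bp. Clusters held 13 of the 29 peaks (44.8%, 28.4 to 62.5%), and 33.8% of all peaks on chromosomes 1 to 22 and X. They were 7 DDIT4 peaks, 3 TXNIP peaks and 3 SLC2A1 peaks, and without DDIT4 the count was 6 of 20 (30.0%).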

How the data were processed

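KMT2D ChIP-seq of 1 library was analysed. Per the study's methods, the authors aligned reads to build hg19 (GRCh37) by Bowtie2, discarded reads without a unique position and ran MACS2 with a p-value limit of 0.01. The methods give 1 replicate, and the control is not given in the sources used here. The deposited values are the fold enrichment (a ratio at the summit), the −log10 p-value and −log10 q-value, and a score, 10 times the −log10 p-value without decimals, which was not used further.

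For all 13808 peaks, ChIP fragments at the summit and the local background were solved from the fold enrichment and p-value, with 1 scale (0.381) for the library and 2.88 fragments as genome-wide background. The rebuilt −log10 p differed from the deposited one by at most 5.0e-04. On a simulated list of 5314 peaks the exact number was recovered for 99.98%. That list was made with the same formulas, so it tests the solving and not whether the deposited values follow them.

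Peak positions were taken as deposited and are counted from 1. The reference used here was GRCh38, which gave only gene names, strands and promoter sequences. Intervals were exact Poisson or Wilson at the 95% level. The rule for named items was all 6 genes with their strongest, 5′-nearest and threshold-passing peaks, and the peaks next to the 50 kb limit, looked for up to 100 kb. Members and lists were chosen with earlier results of these data known. Other glycolysis genes were not analysed here, as they need an hg19 annotation. Alternatives covered q-value thresholds, windows, peak overlap, local background, clusters and the distance from the 5′ end. Computation used pandas 2.3.3, scipy 1.17.1 and numpy 2.4.6 under Python 3.11.15, and plots matplotlib 3.10.9.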

Additional observations from a re-analysis of the deposited data

How the results depend on the processing

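Recomputing the results under other settings gave 47 alternative values, of which 34 were close to the reported one and 13 moved from it. Most settings gave several of these values, so they are not separate analyses. These values are counts, densities, medians and shares, which have no sign, so a reversal was not possible. Counting a peak when any of its bases lay inside the window left every value recomputed that way unchanged. Leaving out peaks above a local background of 5 times the genome-wide level could change nothing, since this ratio reached at most 2.74 around the 6 genes. The count of 29 peaks became 18 at a q-value of 0.01 or lower and 19 among the 6904 peaks of highest fold enrichment. Peaks per Mb fell from 36.0 to 22.3 and 23.6, because fewer peaks entered. Values labelled close also differed. The count was 20 at a q-value of at most 0.05 (24.8 per Mb) and 20 without the DDIT4 window. It was 21 with windows of 25 kb and 38 with windows of 100 kb. Peaks in clusters, 13 with the settings used, numbered 7 with windows of 25 kb, 3 under either q-value threshold and among those 6904 peaks, 24 when gaps could reach 25000 bp, 0 when a cluster needed 5 peaks, and 6 without the DDIT4 window. The 4 genes with a peak near the 5′ end became 1, DDIT4, under either q-value threshold, and 3 without HK2 within 1 kb or by summit. With the TXNIP 5′ end at the higher coordinate there were also 3. That alternative and the one without DDIT4 were chosen after seeing the data. Median fold enrichment stayed between 4.27 and 6.40. No paired analysis was possible because only 1 of the 14 samples was analysed here. With 1 library and 12 to 67 fragments per summit, recurrence of the weak peaks in another library is unknown.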
